A study of Mus musculus with 4 samples.

Results

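The axoneme is the microtubule core of the sperm tail, and the genes described here are those named for its parts: the autosomal protein-coding genes whose symbol begins with Dnah, Dnaic, Dnal, Tekt, Spag, Rsph or Iqc. The rule was applied to the GENCODE annotation of mouse build mm9 (NCBIM37), which still uses the older symbols Dnahc, Dnaic and Dnalc for the dynein chains. It found 57 members among 21418 autosomal protein-coding genes. The names do not guarantee an axonemal protein, because Spag stands for sperm-associated antigen and Iqc for a protein with IQ motifs. The members comprised 15 dynein heavy chains, 5 dynein intermediate or light chains, 7 radial spoke genes, 5 tektins, 11 Spag genes and 14 Iqc genes.

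An axoneme is a ring of doublet microtubules around a central pair. Dynein arms on each doublet are motors that walk along the next one, radial spokes pass signals from the central pair to the arms, and tektins are filaments inside the doublet wall. The flagellum is built in spermatids after meiosis, while H3K36me3, the trimethylation of lysine 36 of histone H3, is laid along the bodies of transcribed genes by SETD2 and at meiotic recombination hotspots by PRDM9.

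H3K36me3 was mapped by ChIP-seq in germ cells, labelled spermatocytes, of C57BL/6J (B6) mice and of the knock-in strain B6.Cg-Prdm9<tm1.1Kpgn>/Kpgn (KI), both at 14 dpp, an age before the flagellum forms. KI mice carry the zinc-finger exon of the Prdm9 allele of CAST/EiJ mice in a genome that is otherwise B6, so PRDM9 binds other sites in the 2 strains. Chromatin was fixed with formaldehyde and cut with MNase, and each strain had its own input, which the labels place at 15 dpp. The labels write the antibody target as H3K36me6, whereas titles and methods give H3K36me3.

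The reads of the biological replicates were merged before peaks were called with ZINBA, so there was 1 pooled peak set per strain. Values are therefore given without replicate error, and no difference between strains could be tested. Each set has broad (unrefined) regions and narrow (refined) peaks given as positions only, so the depth behind a region is unknown. The refined lists held 58502 peaks in B6 and 72692 in KI, and the methods give more aligned reads for the merged KI data. Coverage is the share of a gene's annotated length that lay in broad regions, and a gene is called marked where this share reached 50%. In bulk chromatin, fewer cells of a type and less mark per cell cannot be told apart.

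Marker genes were checked against the cell label. All 5 germ cell markers (Ddx4, Dazl, Sycp3, Dmc1 and Mael) were marked in both strains, with a median coverage of 99.0% in B6 and 98.8% in KI. The 5 markers of Sertoli cells, the somatic cells that nurse the germ cells, had more coverage in B6, where they ranged from 5.19% to 71.7%, than in KI, where they ranged from 0 to 8.49%. Wt1 had 71.7% in B6 and 8.49% in KI, and Sox9 had 45.2% and 0. Among 5 Leydig cell markers only Star was marked, at 100% in both strains, and among 3 macrophage markers only Cd68 was.

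About as many axoneme and flagellum genes were marked as genes in general. In B6, 22 of the 57 members were marked, beside 43.2% of all genes. In KI, 25 members were marked, beside 41.6% of all genes. Both strains marked 20 members, which is 35.1% of them, beside 40.2% of all genes, and neither strain marked 30. The median coverage of the members was 10.7% in B6 and 33.4% in KI, against 21.5% and 19.0% over all genes. Gene by gene the strains lay closer, with a median of KI minus B6 of 1.56 points in the members and 0 over all genes. Broad regions held 25.9% of the members' summed length in B6 and 30.8% in KI, against 38.9% and 35.9% over all genes. No broad region touched 16 members in B6 and 10 in KI, or 28.1% and 17.5%, beside 39.3% and 37.5% of all genes.

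**Figure D1:**
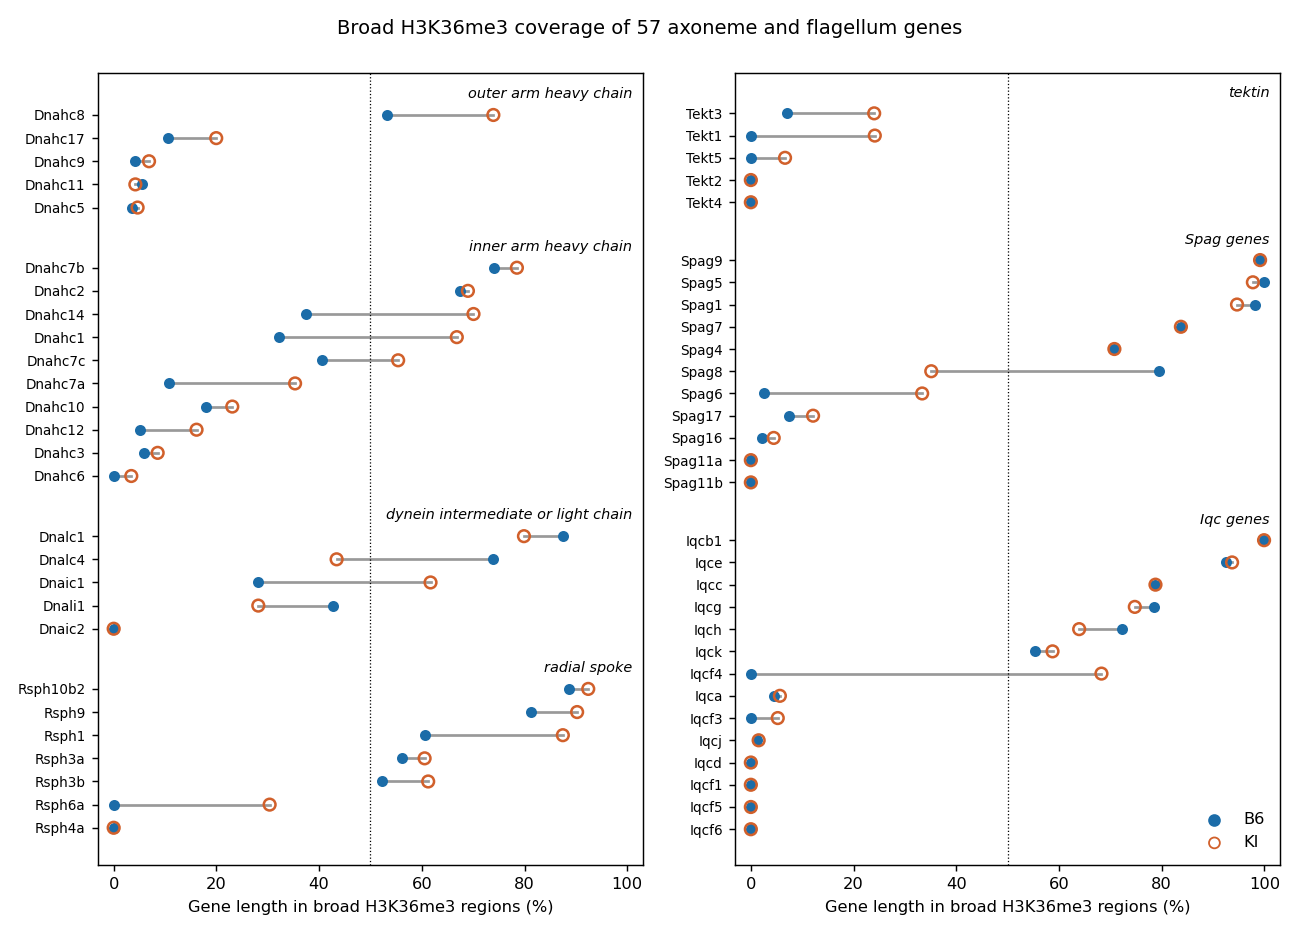
The plot gives for each of the 57 members the percentage of its length in broad H3K36me3 regions in B6 (filled blue) and KI (open orange), 1 pooled peak set each, grouped by role and ordered by mean coverage within a role. The dotted line marks 50%; inner arm heavy chains lie further right in KI in all 10 cases, and the 5 tektins all lie below the line.

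The outer arm heavy chains are the large motor subunits that set beat frequency. Of the 5, only Dnahc8, a heavy chain of sperm, was marked, at 53.2% in B6 and 73.9% in KI. Dnahc8 spans 251 kb on the plus strand of chr17:30761299-31012209 and held 40 B6 and 50 KI refined peaks. Dnahc17, the other heavy chain known from sperm outer arms, had 10.7% in B6 and 19.97% in KI. Dnahc5, Dnahc9 and Dnahc11, which build the outer arms of airway cilia, stayed between 3.54% and 6.88% in either strain. In both strains Dnahc8 thus had the highest coverage of the outer arm genes, whose spans run from 107 to 337 kb.

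The inner arm heavy chains shape the bend of the tail. All 10 had more coverage in KI than in B6, and none had less. This depended in part on narrow regions. With only broad regions of at least 3000 bp, Dnahc2 (55.7% in B6, 55.3% in KI) and Dnahc10 (18.1% and 17.6%) were slightly higher in B6. Dnahc7a then had none in either strain, and the others stayed higher in KI. Dnahc7b had 74.1% in B6 and 78.5% in KI, and Dnahc2 had 67.4% and 69.0%, so these were marked in both strains. Dnahc1, whose human counterpart is known for sperm tail defects when mutated, had 32.2% in B6 and 66.8% in KI. Dnahc14 had 37.5% in B6 and 70.1% in KI, and Dnahc7c had 40.6% and 55.4%, so 3 inner arm genes crossed 50% in KI alone. Dnahc7a had 10.7% and 35.3%. The lowest were Dnahc6, with 0 in B6 and 3.43% in KI, Dnahc3, with 5.96% and 8.56%, and Dnahc12, with 5.20% and 16.1%. Dnahc10 lay between them with 18.1% in B6 and 23.1% in KI. Dnahc7a, Dnahc7b and Dnahc7c are genes of related name on chromosome 1. Of all stretches of 100 bases within them, 18.5% of Dnahc7a, 12.2% of Dnahc7b and 5.64% of Dnahc7c occurred more than once in the genome. Reads without a unique position there would have been dropped. The annotated spans of Dnahc14 (30.7 kb), Dnahc7a (18.5 kb) and Dnahc7c (17.2 kb) were short, against 307 kb for Dnahc7b. Coverage of these genes describes the annotated spans only.

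The intermediate and light chains tie the heavy chains to their cargo and hold them together. Dnaic1, an outer arm intermediate chain, had 28.1% in B6 and 61.7% in KI, while its partner Dnaic2 had no region in either strain. The light chain genes went the other way over their full length. Dnalc4 had 73.9% in B6 and 43.4% in KI, Dnalc1 had 87.4% and 79.9%, and Dnali1, a light intermediate chain of inner arms, had 42.6% and 28.2%. In each of the 3 genes coverage between the start and the midpoint was lower in KI, and in Dnalc4 this stretch had 47.8% in B6 and 0 in KI. Past the midpoint, Dnali1 (46.7% in B6, 56.3% in KI) and Dnalc1 (91.3% and 97.3%) had more in KI, and Dnalc4 (100% and 86.8%) had less. With only broad regions of at least 3000 bp, Dnali1 was higher in KI (23.3% in B6, 28.2% in KI). Dnalc4 and Dnalc1 then stayed higher in B6.

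With all broad regions, radial spoke genes were the role with the largest marked share, 5 of 7 in both strains, beside 40.2% of all genes. Rsph10b2 had 88.6% in B6 and 92.4% in KI, Rsph9 had 81.2% and 90.2%, and Rsph1 had 60.6% and 87.5%. Rsph3a had 56.2% and 60.5%, and Rsph3b had 52.2% and 61.2%. These 2 last genes are near copies on chromosome 17, and 58.8% of the 100-base stretches of Rsph3a and 61.2% of those of Rsph3b were not unique. Rsph4a and Rsph6a encode related proteins of the spoke head. Rsph4a, known from motile cilia of other tissues, had no region in either strain, and Rsph6a, its counterpart in sperm, had 0 in B6 and 30.4% in KI from 1 region on the 5′ side of its midpoint. In this role 6 genes had more coverage in KI and 1 was equal. With only broad regions of at least 3000 bp, Rsph9 (72.2% in B6, 63.2% in KI) and Rsph10b2 (85.8% and 79.1%) had more in B6. Rsph1, Rsph3a and Rsph3b then stayed higher in KI, and Rsph6a had none in either strain. The marked share also fell at that setting. Rsph1 was no longer marked in B6 (22.5%), nor Rsph3b in either strain (40.9% in B6, 48.8% in KI).

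The tektins were the opposite case, with 0 of 5 marked in either strain. Tekt2 and Tekt4 had no region at all. Tekt1 had 0 in B6 and 24.1% in KI, Tekt3 had 7.04% and 24.0%, and Tekt5 had 0 and 6.66%. Tekt2 had no region although the gene next to it, Adprhl2, 418 bp away, had 92.1% in B6 and 83.3% in KI.

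The Spag genes fell into a covered and an uncovered set. Spag5, a mitotic spindle protein also called astrin, had 100% in B6 and 97.8% in KI, and Spag9, a scaffold of JNK signalling, had 99.2% in both. Spag1, an assembly factor of dynein arms, had 98.2% and 94.7%. The 3 central pair genes were low in B6: Spag6 had 2.62% in B6 and 33.4% in KI, Spag16 had 2.23% and 4.45%, and Spag17 had 7.46% and 12.1%. Spag11a and Spag11b, which encode defensin-like proteins of the epididymis rather than tail parts, had no region. Spag4, a nuclear envelope protein, had 70.8% in both strains and Spag7 had 83.7% in both. Spag8, a short gene of 2.26 kb, had 79.4% in B6 and 35.1% in KI.

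Among the Iqc genes, the testis-specific cluster on chromosome 9 was mostly without the mark. Iqcf1, Iqcf5 and Iqcf6 had no region in either strain, Iqcf3 had 0 in B6 and 5.24% in KI, and Iqcf4, with a length of 2.68 kb, had 0 and 68.3%. Iqcb1, a ciliary transition zone protein, had 99.9% in both strains, but it lies within Eaf2, which had 97.5% in B6 and 96.2% in KI. Iqce had 92.5% and 93.7%. Iqcg, Iqcd and Iqca belong to the nexin-dynein regulatory complex that links neighbouring doublets. Iqcg had 78.4% in B6 and 74.8% in KI, Iqcd had no region, and Iqca had 4.49% and 5.66%. Iqch had 72.2% and 63.9%, Iqck had 55.3% and 58.7%, and Iqcj had 1.22% and 1.52%. Iqcc had 78.8% in both, but it lies within 2510006D16Rik, which had 74.8% in both strains.

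Members of at least 5 kb thus ranged from complete coverage to none. The 5 with the highest mean coverage of both strains were Iqcb1 (chr16:36828471-36872807, plus strand), Spag9 (chr11:93857405-93987399, plus), Spag5 (chr11:78115031-78135959, plus), Spag1 (chr15:36109123-36165365, plus) and Iqce (chr5:141137781-141178332, minus). Each held 1 or 2 B6 refined peaks and between 1 and 5 KI refined peaks. The 5 with the lowest were Iqcd (chr5:121039025-121057123, plus), Dnaic2 (chr11:114588722-114619203, plus), Tekt4 (chr17:25608535-25613539, plus), Rsph4a (chr10:33624917-33635827, plus) and Iqcj (chr3:67696142-67860515, plus). The first 4 of these had neither a broad region nor a refined peak in either strain, and Iqcj had 1 B6 and 2 KI refined peaks.

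KI was more often the strain with more coverage in these genes, and B6 in genes in general. KI had more coverage in 33 members, B6 in 9, and 15 were equal, whereas over all genes B6 had more in 6545, KI in 3773, and 11100 were equal. Among genes of unequal coverage this is 78.6% higher in KI for the members and 36.6% for all genes. Coverage was higher in KI by at least 25 percentage points in 7 members, beside 2.11% of all genes, and higher in B6 by that much in 2, beside 3.24% of all genes. The 7 were Spag6, Dnaic1, Dnahc1, Dnahc14, Rsph1, Rsph6a and Iqcf4, and the 2 were Spag8 and Dnalc4. Dnahc7a, with a difference of 24.6 points, lay just below the limit.

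**Figure D2:**
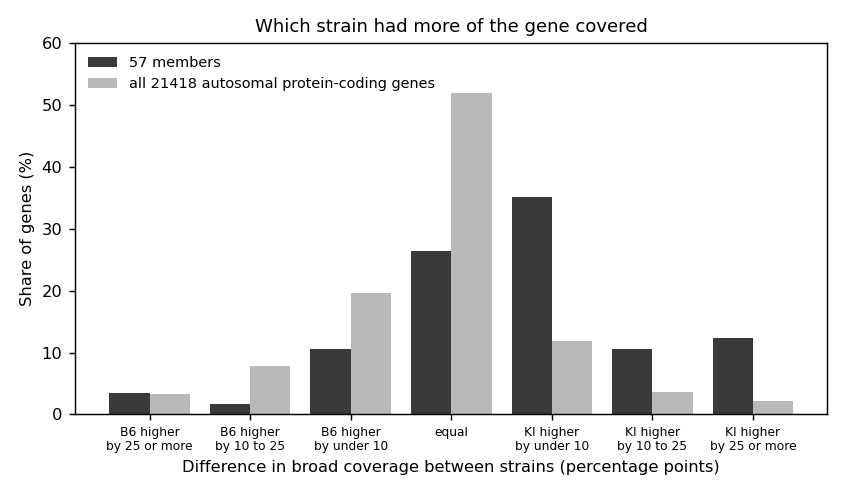
Bars give the percentage of the 57 members (dark) and of all 21418 autosomal protein-coding genes (pale) in 7 classes of the difference in broad coverage between strains, in percentage points. The members have 12.3% in the class at least 25 points higher in KI and 26.3% at equal coverage, against 2.11% and 51.8% of all genes.

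Most members with more coverage in KI were under 50% in B6. Of the 35 members under 50% in B6, KI was higher in 23 and B6 in 2, against 2491 and 2129 of 12161 such genes. KI was higher by at least 25 points in 6 of the 35, which is 17.1%, against 3.43% of all such genes. Choosing genes low in 1 strain favours the other strain, so the reverse choice is given as well. Of the 32 members under 50% in KI, KI was higher in 18 and B6 in 4, against 2193 and 2784 of all such genes. By 25 points or more, 2 were higher in KI and 2 in B6, or 6.25% each, beside 1.69% and 4.83% of all such genes. By length of sequence, broad regions of both strains shared 1151 kb of the members' 5194 kb, B6 alone had 193 kb, and KI alone had 449 kb. That is 3.72% for B6 alone and 8.64% for KI alone, against 5.92% and 2.98% over all genes. Dnahc8 held the most sequence covered in KI alone, 63.0 kb, against 11 kb in B6 alone. The excess was smaller with broad regions under 3000 bp left out. KI was then higher in 25 members and B6 in 13, against 3013 and 6122 of all genes. By at least 25 points, 3 members (Iqcf4, Dnahc14 and Rsph1) were higher in KI and 2 in B6, beside 1.54% and 3.88% of all genes. Other differences between the pools moved with this result, the lower coverage of the 5 Sertoli cell markers in KI and the larger number of KI reads and peaks. Their part in the result was not tested.

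The 5 largest differences between strains were seen in Iqcf4, Spag8, Dnahc1, Dnaic1 and Dnahc14. Iqcf4 (chr9:106470652-106473327, minus strand) had 68.3 points more in KI, from 1 region of 3.0 kb. Spag8 (chr4:43664207-43666466, minus strand) had 44.2 points less in KI. Its B6 and KI regions were both 4.0 kb wide, and all of the gene that KI covered, 0.794 kb, was covered in B6 as well. Neither gene gave more than 1 region per strain, and broad regions begin on a grid of 500 bp, so in genes this short each grid step moves the coverage strongly. Dnahc1 (chr14:32073561-32137082, minus strand) had 34.6 points more in KI, from 8 regions against 5. Dnaic1 (chr4:41516808-41585191, plus strand) had 33.6 points more, from 6 regions in each strain, the widest of 12 kb in KI and 5.50 kb in B6. Dnahc14 (chr1:183669119-183699805, plus strand) had 32.6 points more, from 3 regions against 4.

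**Figure D3:**
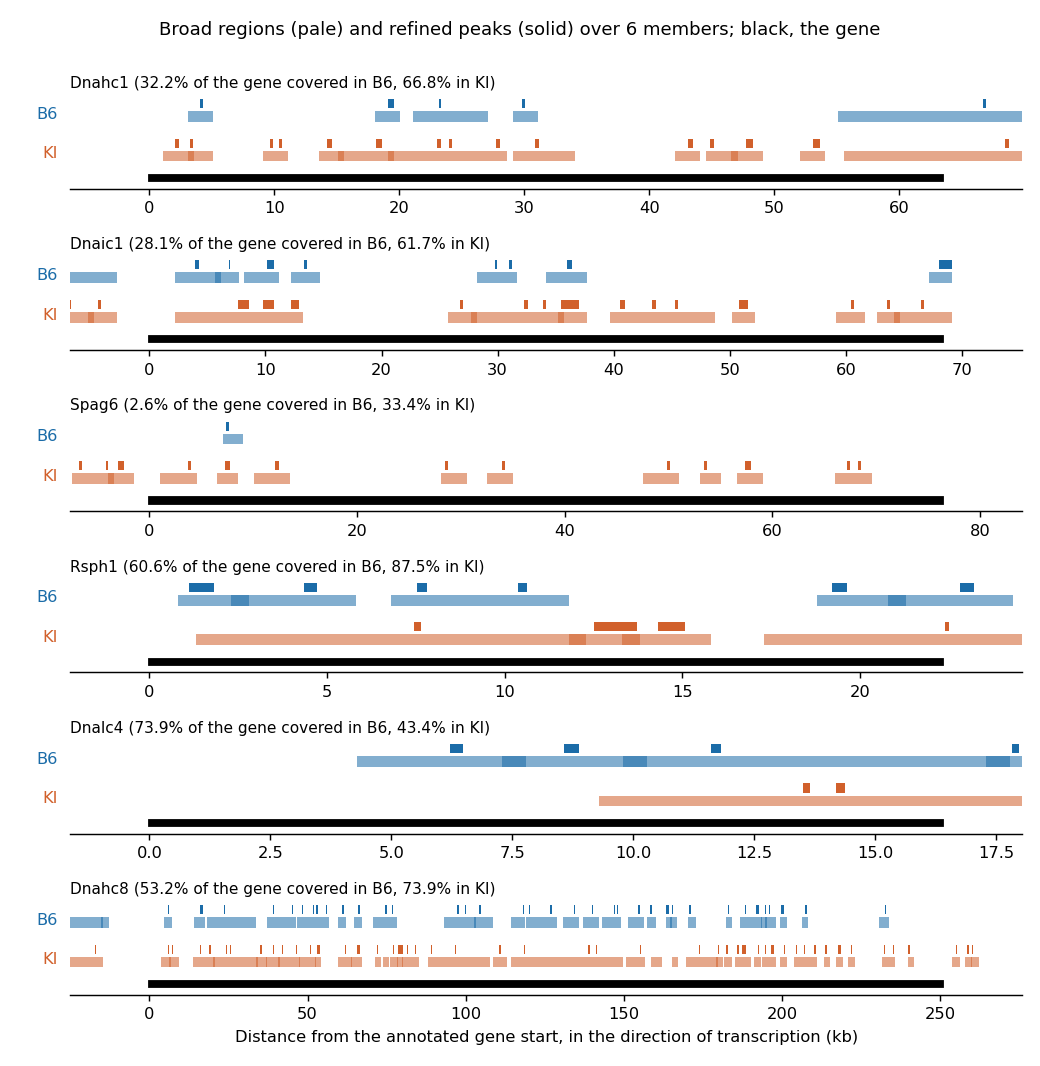
Each panel maps broad regions (pale bars, darker where 2 called regions overlap) and refined peaks (solid ticks above) of B6 (blue) and KI (orange) over 1 member (black bar); the x axis is the distance from the annotated gene start in kb. KI regions fill parts of Dnahc1, Dnaic1 and Spag6 that have no B6 region, whereas in Dnalc4 the B6 region begins nearer the gene start.

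Within the gene body, coverage on the 5′ and 3′ sides of the midpoint was compared, leaving aside genes in which both sides were equal. In B6, 25 members had more coverage on the 3′ side of the midpoint and 15 on the 5′ side, against 10381 and 1885 of all genes. In KI the counts were 28 and 19, against 10399 and 2291. The difference from all genes was not tested. Radial spoke genes leaned to the 5′ side, with 4 of 7 against 1 in B6. In the 17 members of at least 20 kb marked in both strains, each divided into 10 equal bins from start to end, mean B6 coverage was 90.1% in bin 5 and 75.6% in bin 10, while 4571 marked genes of that size had 95.1% and 95.9%. The 5 kb before the gene start were covered to 48.9% for these members and to 28.6% for all such genes. The first 500 bp on either side of the start held no broad region in 49 members in B6 and in 48 in KI, or 86.0% and 84.2%, beside 84.1% and 83.9% of all genes.

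**Figure D4:**
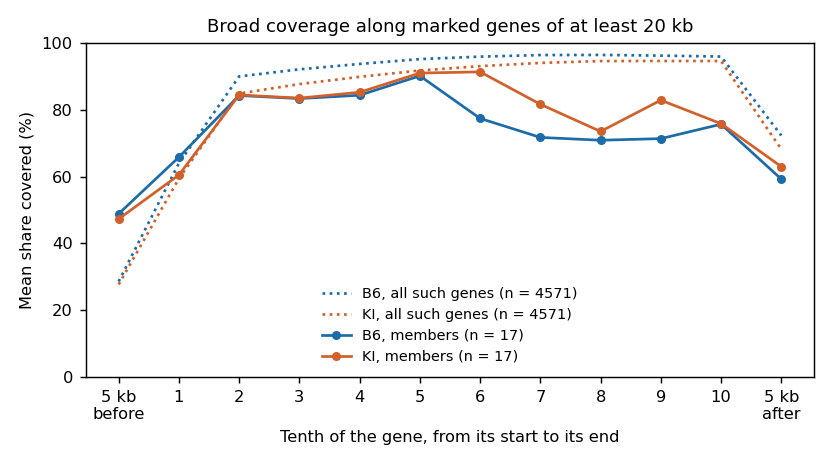
Lines give the mean percentage covered by broad regions in the 5 kb before the gene, in each of 10 equal bins of the gene and in the 5 kb after it, for 17 members (solid, points) and 4571 genes (dotted) of at least 20 kb marked in both strains. Members reach 90.1% in B6 in bin 5 and lie below all such genes from there to bin 10 in both strains.

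Genes that overlap another gene were marked more often, in the members as in general. Of the 45 members that overlap no other protein-coding gene, 13 were marked in both strains (28.9%, beside 36.9% of all such genes), and of the 12 that overlap one, 7 were (58.3%, beside 53.2%). Among these 7, Rsph10b2 overlaps Pms2 (97.6% in B6) and Rsph9 overlaps Mrps18a (96.8%). Gene length also differed, with a median of 34.2 kb for the members and 15.5 kb for all genes. Within classes of length, both strains marked 25% of the members under 10 kb (26.6% of all genes of that length), 25% of those of 10 to 30 kb (50.8%), 53.3% of those of 30 to 100 kb (54.9%) and 33.3% of those of at least 100 kb (32%).

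Refined peaks mark narrow maxima inside broad regions. At least 1 overlapped 36 members in B6, beside 52.6% of all genes, and 42 in KI, beside 55.0% of all genes. In all, 263 B6 and 364 KI refined peaks overlapped members, or 50.6 and 70.1 per Mb of gene, against 44.1 and 53.2 per Mb over all genes. Dnahc7b (chr1:46123583-46430395, plus strand) held the most, with 48 in B6 and 44 in KI. Dnahc8 came next with 40 and 50, and Iqch (chr9:63269262-63450300, minus strand) followed with 23 and 31. The peaks were mostly intronic, with 19.4% of B6 and 24.5% of KI peaks touching an exon. Their median width was 319 bp in B6 and 330 bp in KI.

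Most refined peaks of the members were not common to both strains. Of the B6 peaks in members, 25.5% (Wilson 95% interval 20.6% to 31.1%) overlapped a KI refined peak by at least 1 bp, 51.7% (45.7% to 57.7%) lay in a KI broad region only, and 22.8% (18.2% to 28.3%) met no KI region. Of the KI peaks, 18.1% (14.5% to 22.4%) overlapped a B6 refined peak, 36% (31.2% to 41.0%) lay in a B6 broad region only, and 45.9% (40.8% to 51.0%) met no B6 region. These intervals cover the number of peaks only, and peaks of 1 gene are not independent. Over all genes the shares that overlapped a refined peak of the other strain were 19.1% for B6 and 15.8% for KI, both lower than in the members. The shares without any region of the other strain were 37.1% for B6 and 19.2% for KI, so B6 had the larger share, whereas in the members KI had.

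**Figure D5:**
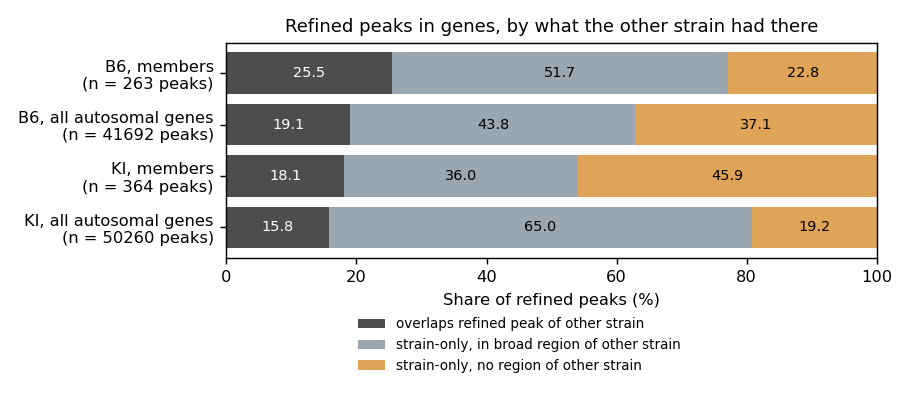
Stacked bars divide the refined peaks of each strain in members and in all autosomal protein-coding genes by what the other strain had at that place; the x axis is the percentage of peaks. The class with no region of the other strain holds 45.9% of KI peaks in members against 19.2% in all genes.

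The KI peaks without a B6 region lay in many members. The 167 of them were spread over 34 members, with at most 18 in any 1 (Dnahc8), and the 60 B6 peaks without a KI region over 20 members. In the 20 members marked in both strains, 25.6% of KI peaks met no B6 region (20.2% to 31.7%), against 4.02% in all marked genes. Of these 56 peaks in marked members, Dnahc8 held 18, Iqck 11 and Dnahc7b 10, so most lay in these long genes. In the other members 76.6% of KI peaks met no B6 region (69.0% to 82.7%), against 45.2% in all other genes. B6 broad regions covered 72.9% of the sequence of the marked members and 90.9% of that of all marked genes, so more of the members lay outside B6 regions. Of the B6 peaks, 15.0% met no KI region in the marked members, against 15.6% in all marked genes. In the other members 47.6% of B6 peaks met none, against 60.1% in all other genes. Of the 14 KI peaks of Dnahc1, 9 met no B6 region, and so did 10 of 14 in Dnaic1, 9 of 10 in Spag6, 13 of 16 in Spag16 and 7 of 10 in Spag17. Of the B6 peaks in these genes, 0 of 4 in Dnahc1, 1 of 8 in Dnaic1, 0 of 1 in Spag6, 6 of 9 in Spag16 and 0 of 2 in Spag17 met no KI region. Refined peaks lie inside broad regions, and Dnahc1, Dnaic1 and Spag6 were named above for their higher broad coverage in KI. Their peak counts therefore largely restate that difference and are no separate result.

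The 66 overlapping pairs of refined peaks fell in 16 members, led by Dnahc8 with 15 and Dnahc7b with 14. The widest common stretch, 994 bp at chr1:46165996-46166989, touched an exon of Dnahc7b, 43.0 kb from its start. The next were 636 bp in Dnahc8 (chr17:30827118-30827753, exon), 567 bp in Dnaic1 (chr4:41526981-41527547, intron) and 561 bp in Rsph3a (chr17:8168174-8168734, intron). The 3 widest B6 peaks were 2278 bp at the 3′ end of Iqch, 1651 bp in Dnahc7b and 1187 bp in Rsph3a. The 3 widest KI peaks were 1866 bp in Dnahc7c, 1743 bp in Dnahc8 and 1559 bp in Dnaic1, of which the first 2 met no B6 region.

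Sequences of 6 intronic peaks are shown so that common and strain-only sites can be read side by side. All are the plus strand of mm9, 5′ to 3′. The first pair are stretches that refined peaks of both strains covered, in Iqch at chr9:63375045-63375339 and in Iqcg at chr16:33029811-33030098.
Iqch, both strains: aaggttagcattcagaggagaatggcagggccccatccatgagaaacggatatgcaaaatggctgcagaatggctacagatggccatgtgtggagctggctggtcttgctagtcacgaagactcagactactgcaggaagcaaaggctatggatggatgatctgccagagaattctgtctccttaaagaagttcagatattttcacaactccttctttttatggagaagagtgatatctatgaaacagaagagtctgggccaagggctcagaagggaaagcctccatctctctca
Iqcg, both strains: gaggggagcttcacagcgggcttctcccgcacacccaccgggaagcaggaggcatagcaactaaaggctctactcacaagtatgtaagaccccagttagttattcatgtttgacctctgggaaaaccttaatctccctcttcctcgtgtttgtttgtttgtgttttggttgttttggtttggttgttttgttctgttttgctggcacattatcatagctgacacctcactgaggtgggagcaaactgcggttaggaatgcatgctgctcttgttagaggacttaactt

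The next 3 are refined peaks of KI at which B6 had no region, in Dnahc9 at chr11:65731826-65732075, in Dnahc1 at chr14:32091911-32092175 and in Dnaic1 at chr4:41577221-41577519. Capitals in Dnahc9 mark 1 of the 20 listed 10-mers most enriched in KI-only over B6-only peaks of other autosomal genes and intergenic sites. The other 2 hold none of the listed 10-mers.
Dnahc9, KI only: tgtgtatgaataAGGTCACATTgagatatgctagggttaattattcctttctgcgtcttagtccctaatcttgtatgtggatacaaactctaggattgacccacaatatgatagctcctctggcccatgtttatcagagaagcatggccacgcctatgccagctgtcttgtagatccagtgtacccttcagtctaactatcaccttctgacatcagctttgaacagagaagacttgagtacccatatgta
Dnahc1, KI only: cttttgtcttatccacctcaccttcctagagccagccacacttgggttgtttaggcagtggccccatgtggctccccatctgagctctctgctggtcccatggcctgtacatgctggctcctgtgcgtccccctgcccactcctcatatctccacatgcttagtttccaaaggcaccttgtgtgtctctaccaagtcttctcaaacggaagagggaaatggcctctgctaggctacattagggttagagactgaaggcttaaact
Dnaic1, KI only: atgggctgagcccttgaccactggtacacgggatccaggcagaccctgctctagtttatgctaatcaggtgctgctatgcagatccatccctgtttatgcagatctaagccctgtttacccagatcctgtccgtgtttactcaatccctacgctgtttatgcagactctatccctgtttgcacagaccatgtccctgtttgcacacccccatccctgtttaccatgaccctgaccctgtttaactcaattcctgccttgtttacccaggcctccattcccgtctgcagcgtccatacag

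The last is a refined peak of B6 at which KI had no region, in Dnahc11 at chr12:119144377-119144656, and it begins with a simple repeat.
Dnahc11, B6 only: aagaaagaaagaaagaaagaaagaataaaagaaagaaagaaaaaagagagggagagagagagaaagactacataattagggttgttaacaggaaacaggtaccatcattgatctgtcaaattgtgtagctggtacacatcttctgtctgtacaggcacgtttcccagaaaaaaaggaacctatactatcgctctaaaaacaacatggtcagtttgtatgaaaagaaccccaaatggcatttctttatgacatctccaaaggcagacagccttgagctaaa

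The listed 10-mers were rare in the members. Of the 167 KI peaks with no B6 region, 3 held a KI 10-mer in the central 400 bp (1.80%, Wilson 95% interval 0.613% to 5.15%), and 3 held a B6 10-mer. Of the 60 B6 peaks with no KI region, 1 held a B6 10-mer and 0 held a KI 10-mer. These counts are too small to compare the 2 lists of 10-mers, or the members with other genes. The GC content of the KI-only peaks with no B6 region had a median of 43.9%, as did that of the common KI peaks, and that of the B6-only peaks with no KI region was 39.2%.

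Promoters of axonemal genes are known to carry X-boxes, the sites of RFX transcription factors, which drive cilia genes. The palindromic X-box-like motif GTNNCCNNGGNNAC, which reads the same on both strands, was searched in the 250 bases before to 50 after each annotated gene start in mm9. It was present in 5 of 57 members (8.77%) and in 405 of all 21418 promoters (1.89%). Iqcc and Spag5 are members by Spag or Iqc names, which do not guarantee an axonemal protein. Iqca has such a name too, but it was placed above in the nexin-dynein regulatory complex. Only Tekt4 and Rsph9 were among the 32 members without such names. The matches are written with the fixed bases in capitals, on the strand of the gene, and their positions are relative to the gene start.
Iqca, -135, chr1:92050098-92050111, minus: GTtgCCacGGaaAC
Iqcc, -79, chr4:129296409-129296422, minus: GTgtCCctGGagAC
Spag5, -124, chr11:78114907-78114920, plus: GTaaCCggGGgaAC
Tekt4, -160, chr17:25608375-25608388, plus: GTgtCCtgGGaaAC
Rsph9, 10, chr17:46281142-46281155, minus: GTctCCatGGagAC

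Of the 5 genes with a match, Iqcc, Spag5 and Rsph9 were marked in both strains, and Iqca and Tekt4 were not. Marked members more often had CpG-rich starts. The ratio of observed to expected CpG in the 500 bases on either side of the start was at least 0.6 in 13 of the 20 members marked in both strains and in 4 of the other 37. Over all genes the shares were 78.2% of the marked and 25.2% of the others, and the members as a whole had fewer such starts (29.8%) than all genes (46.5%).

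Other genes of the tail were examined from lists fixed by role. Of 6 genes of the nexin-dynein regulatory complex, 2 were marked in both strains, and KI was higher in 4 and B6 in 0. Ccdc39, which sets the spacing of the dynein arms, had 68.0% in B6 and 80.5% in KI, and Ccdc65 had 0 and 23.1%. Of 9 genes for docking and assembly of dynein arms, 5 were marked in both, and KI was higher in 7 and B6 in 1. Zmynd10, an assembly factor, had 0 in B6 and 49.9% in KI. Of 4 other central pair genes 1 was marked in both, and B6 was higher in 3, while Hydin, a giant central pair protein, had 4.81% in B6 and 11.1% in KI. Of 10 genes of the fibrous sheath and outer dense fibres, the sleeves that stiffen the tail, 4 were marked in both, with 4 higher in each strain.

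Transport and control genes were covered more fully. All 12 intraflagellar transport genes, whose trains carry axonemal parts, were marked in both strains, with a median of 96% in B6 and 94.6% in KI. Of 5 ciliary transcription factor genes 3 were marked in both. Rfx2, a regulator of spermatid cilia genes, had 82.9% in B6 and 92.9% in KI, and Foxj1 had no region in either strain. For comparison, all 13 genes of the synaptonemal complex and meiotic axis, which act at this stage, were marked in both strains with a median of 97%, and 10 of them had equal coverage. Of 15 genes used in spermatids 2 were marked in both strains, and their median was 0 in each. The median of the axonemal members lay between those of these lists. Coverage was equal in both strains in 26.3% of the members, beside 51.8% of all genes. It was equal in 11 of the 15 spermatid genes, 4 of 12 intraflagellar transport genes, 2 of 10 genes of the fibrous sheath and outer dense fibres, 2 of 6 of the nexin-dynein regulatory complex, 1 of 9 for docking and assembly, and 0 of 4 other central pair genes. Equal coverage includes genes with no region in either strain. Of the spermatid genes, of median length 1.33 kb, 12 had no region in B6 and 10 had none in KI. Equality also went with length. It held for 6703 of all 8453 genes under 10 kb and for 169 of all 2281 genes of at least 100 kb.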

How the data were processed

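H3K36me3 ChIP-seq peak lists of germ cells from B6 and KI mice were analysed, 1 pooled set per strain with the input of that strain as control. According to the methods, the authors trimmed the reads, aligned them to mm9 with BWA 1.2.3, kept reads of unique position, merged the replicates of a strain and called broad (unrefined) and narrow (refined) peaks with ZINBA. The deposited files hold chromosome, start and end, with no count or score; starts of broad regions fall on a 500 bp grid, so positions were read as counted from 1. Repeated broad regions were used once and merged.

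Genes came from GENCODE for mm9, and sequences from the same build. Coverage, overlaps (at least 1 bp) and Wilson 95% intervals were computed with Python 3.11.15, numpy 2.4.6, pandas 2.3.3 and scipy 1.17.1. Coverage was checked with bedtools 2.31.1 (57 of 57 members equal in both strains) and tested on simulated data. With 1 pooled set per strain no test between strains was possible. The 20 10-mers of each strain were ranked on strain-only peaks outside the members, on 19 autosomes.

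The members and lists were chosen with earlier results of these data known. All members are named by role. Full values were given for the 5 highest and the 5 lowest in mean coverage of at least 5 kb, the 5 with the largest strain difference, the 3 with most refined peaks, the 3 widest peaks per strain and the widest common stretches. Genes of the lists that were not found under their listed symbols (3) were not used here. Alternatives tried were other limits of coverage and difference, narrower sets of regions or peaks, other definitions of a common peak, the longest transcript, unshared bases and the members without Spag and Iqc names.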

Additional observations from a re-analysis of the deposited data

How the results depend on the processing

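Of 54 recomputed values, 35 stayed near the reported value and 19 moved. A count stayed if it was within 1.5 times the reported count, and a share if it lay in the Wilson interval of the reported share. Counts without the Spag and Iqc names come from 32 members, so they fall with the size of the set as well. With a limit of 80% in place of 50%, 9 members were marked in B6, 9 in KI and 8 in both. Without the Spag and Iqc names, 10 of 32 were marked in B6, 13 in KI and 9 in both, 23 had a B6 and 27 a KI refined peak, and KI had more coverage in 24 and B6 in 4. The count of 9 members that differed between strains by 25 points became 16 at 10 points (13 higher in KI), 1 at 50 points (Iqcf4), and 5 with broad regions of at least 3000 bp. Refined peaks of at least 300 bp numbered 150 in B6 and 215 in KI. The share of B6 peaks common to both strains was 16% when the overlap had to reach 50% of the shorter peak, 39.9% within 500 bp and 77.2% when broad regions counted, and that of KI peaks was 11.3%, 28% and 54.1%. Leaving out the 4 members of which at least 10% of 100-base stretches recur, an alternative added after the data were seen, left 17 of 53 marked in both and 9 that differed by 25 points. The causes were not tested. No paired analysis was possible because each strain has 1 pooled list and the result comes from no test, and for the same reason no replicate could be left out. The lists hold no reads, so depth limits all values to an unknown extent.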
